A study of Mus musculus with 10 samples.

Results

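Leukocytes in blood carry integrins and selectin ligands, the proteins with which they tether to a vessel wall, roll, stop and cross it. The 9 genes described here encode 7 integrin chains (*Itgal*, *Itgam*, *Itgb2*, *Itga4*, *Itgb7*, *Itgb1* and *Itga6*), the selectin ligand PSGL-1 (*Selplg*) and the junction protein PECAM-1 (*Pecam1*). They were selected by symbol from a fixed set of names, with no cut on their values, and all 9 were among the 10431 genes of the table. No selectin is one of the 9. None of the 9 passed the thresholds for a difference between mice prone to olanzapine-induced weight gain (AIWG-P) and resistant mice (AIWG-R), and the values of the cohorts overlapped in all 9. Among single mice, *Itga6*, *Itgb1* and *Pecam1* varied together and were lowest in P3, and *Itga4* and *Itgam* were lowest in P8, both AIWG-P mice.

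The RNA came from whole blood of 10 female C57BL/6J mice bought at 9 weeks of age and housed singly, 5 that later gained the most weight (P1, P3, P5, P7 and P8) and 5 that gained the least (R1, R2, R4, R8 and R9) over 14 days on a diet with 45% of kcal from fat that contained olanzapine, an antipsychotic. Both cohorts were given the same diet and drug, mice without the drug were not analyzed here, and the cohorts are the ends of the range of weight gain in 1 inbred strain. By the study's methods the blood was drawn at baseline, before the diet, while the treatment field of the sample labels names the olanzapine diet for every mouse. The labels also carry a number of unstated meaning, which is 4 in 7 of the mice and 3 in P7, P8 and R1.

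An integrin is a pair of an alpha and a beta chain that spans the membrane and is held bent and inactive until signals inside the cell, through talin and kindlin, straighten it. The alpha chain largely sets the ligand: alphaL with beta2 (LFA-1) binds ICAMs, alphaM with beta2 (Mac-1) binds ICAM-1, fibrinogen and complement fragments, alpha4 with beta1 (VLA-4) binds VCAM-1, alpha4 with beta7 binds MAdCAM-1 of gut vessels, and alpha6 with beta1 binds laminin. Rolling comes before this step and rests on selectins, which bind sugars on PSGL-1 and other carriers. PECAM-1, of the immunoglobulin superfamily, sits on platelets, leukocytes and endothelium and takes part in the passage of leukocytes between endothelial cells.

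RefSeq promoter windows (GRCm38.p6, 250 bases before to 50 after the start site) were matched for 4 of the 9 genes, *Itgam*, *Itga4*, *Itgb7* and *Itgb1*. The first 3 are printed because *Itga4* and *Itgb7*, chains of 1 receptor, had values that ran against each other on the deposited scale, a relation that did not pass the adjusted test and rested on P8, and *Itgam* is the chain of myeloid cells. Capitals mark GAGGAA or its reverse complement TTCCTC, the core that the myeloid factor PU.1 binds, searched on both strands.
Itgam promoter, chr7:128062390-128062689, plus strand: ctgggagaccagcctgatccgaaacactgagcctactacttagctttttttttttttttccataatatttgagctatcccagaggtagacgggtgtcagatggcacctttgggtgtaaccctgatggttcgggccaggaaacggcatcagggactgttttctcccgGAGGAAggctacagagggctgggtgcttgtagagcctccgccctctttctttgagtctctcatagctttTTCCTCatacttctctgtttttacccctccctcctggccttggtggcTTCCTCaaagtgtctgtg
Itga4 promoter, chr2:79255176-79255475, plus strand: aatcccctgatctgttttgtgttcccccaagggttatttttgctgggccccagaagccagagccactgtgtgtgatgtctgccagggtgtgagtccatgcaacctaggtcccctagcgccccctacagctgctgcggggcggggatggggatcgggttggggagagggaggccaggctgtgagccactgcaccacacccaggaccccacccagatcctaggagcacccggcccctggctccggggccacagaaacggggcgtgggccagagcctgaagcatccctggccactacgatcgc
Itgb7 promoter, chr15:102231886-102232185, minus strand: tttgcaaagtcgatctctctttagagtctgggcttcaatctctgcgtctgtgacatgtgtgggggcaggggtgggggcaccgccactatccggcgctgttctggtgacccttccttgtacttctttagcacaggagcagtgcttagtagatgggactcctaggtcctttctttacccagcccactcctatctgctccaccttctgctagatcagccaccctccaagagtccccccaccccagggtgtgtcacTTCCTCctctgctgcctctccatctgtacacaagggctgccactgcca
The GAGGAA core stood 3 times in the *Itgam* window (at -84, -15 and 32 bases from the start site, counted to the first base of the match), once in that of *Itgb7* and once in that of *Itgb1*, and not in that of *Itga4*, while 28.3% of 32851 promoter windows of the same length held it. GGGCGG, the core of the GC box, was found once each in the windows of *Itgam*, *Itga4* and *Itgb1* and in 35.7% of all windows. TATAAA, the TATA box, was found in none of the 4 and in 13.6% of all. A match is a stretch of letters and no evidence of binding.

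Values are normalized values per gene and mouse as the authors deposited them, on a scale on which the median gene of a mouse lay between 142.9 and 145.7. Every value was a whole multiple of 1 step per mouse, and the steps summed to 24447563 to 32293924 in AIWG-P and 23810098 to 28093845 in AIWG-R, a measure of depth only if each step stands for 1 read. The lowest value above 0 was 1 to 7 steps, and the steps were not accepted as reads. The share of globin genes was 78.2 to 87.5% in AIWG-P and 75.0 to 83.2% in AIWG-R, as blood with its red cells would give. Of the 17 red cell genes listed, 13 rose in AIWG-P past both thresholds given in the next paragraph, against 423 of 10429 genes in all. None of the 17 had a limma adjusted *p* under 0.05. The summed platelet markers ran from 3656 in P3 to 12919 in P8, with 6639 to 9830 in the other 8 mice. Across 10034 genes of known transcript length, long transcripts were low in P8 relative to short ones (log2 value lower by 0.302 per doubling of length, slope -0.302), against slopes of -0.0747 to 0.118 in the other mice. P3 and P8 thus stood apart, and both are AIWG-P mice.

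Across all 10429 genes tested with limma, 760 passed both thresholds (a *p* under 0.05 before adjustment, and a log2 fold change beyond 0.32 in either direction), 7.29% of the genes, and 0 had an adjusted *p* under 0.05. Of the 9 adhesion genes 0 passed both thresholds, against this background of 7.29%. One, *Selplg*, had an unadjusted *p* under 0.05, a criterion met by 1340 genes or 12.8% of all. None of the 9 had values that did not overlap between the cohorts, which was the case for 2.55% of all genes. A positive log2 fold change (AIWG-P over AIWG-R) was seen in 2 of the 9, *Itgb2* and *Selplg*, and in 5047 of all 10429 genes. The median log2 fold change of the 9 was -0.06, and that of all genes -0.01. In bulk blood, fewer cells of a type and less RNA per cell cannot be told apart, here and in all that follows.

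**Figure D1:**
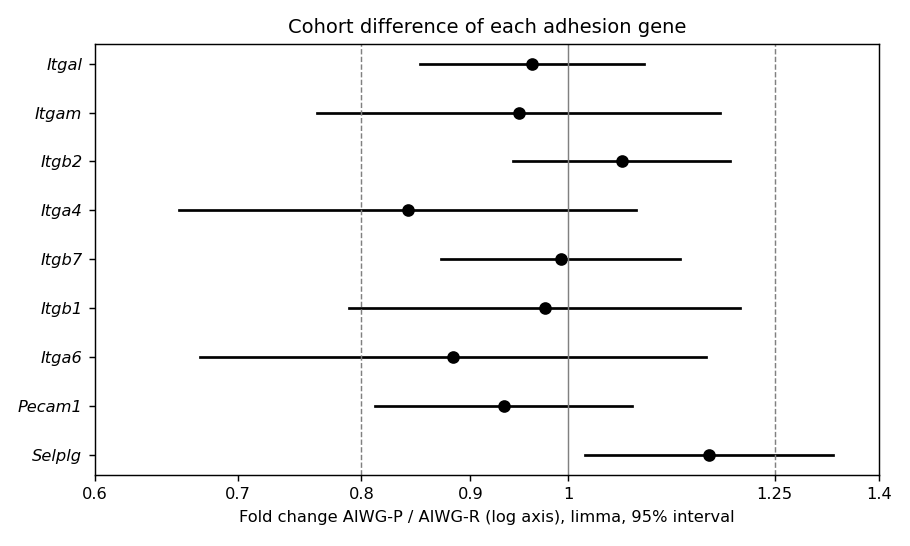
Fold change of each adhesion gene between the cohorts (AIWG-P over AIWG-R, log axis), with the estimate of limma as a point and its 95% interval as a bar. The dashed lines mark the fold threshold in each direction (log2 of 0.32), and only the interval of *Selplg*, from 1.02 to 1.33, leaves out a fold of 1.

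Of the beta2 integrin chains, *Itgb2* and *Itgal* had the smallest spread of the 9 genes and *Itgam* a wider one, with no difference between the cohorts past the thresholds. *Itgb2* (Entrez 16414, chromosome 10), the beta chain shared by LFA-1 and Mac-1, had values of 2674, 2456, 2506, 2767 and 2704 in P1, P3, P5, P7 and P8 and of 2766, 2446, 2472, 2452 and 2247 in R1, R2, R4, R8 and R9. The highest AIWG-R mouse, R1, reached the level of the highest AIWG-P mouse, P7, and the other 4 AIWG-R mice lay in or below the lower part of the AIWG-P range. The means were 2621 ± 134 for AIWG-P against 2477 ± 186 for AIWG-R (SD, n = 5 each), a fold change of 1.06 with a 95% interval of 0.942 to 1.19. Its log2 fold change was 0.08, against -0.01 under quantile normalization and -0.06 under globin-free scaling, in which each mouse was set to the same total without its globin genes and which moved the median of all genes to -0.15. The sign of *Itgb2* therefore depended on the scaling. Under globin-free scaling it stayed above the median of all genes. Under quantile normalization it lay just below that median (-0.006 against 0.001).

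*Itgal* (Entrez 16408, chromosome 7), the alphaL chain of LFA-1 found on most leukocytes, had values of 2376, 2710, 2731, 2466 and 2256 in P1, P3, P5, P7 and P8. The AIWG-R mice had 2824, 2532, 2656, 2490 and 2513 in R1, R2, R4, R8 and R9. The ranges overlapped in part, with P8 lowest and R1 highest of the 10. P1, P7 and P8 lay below every AIWG-R mouse, and R1 lay above every AIWG-P mouse. The fold change was 0.962 (95% interval 0.852 to 1.09; limma adjusted *p* = 0.770), with 2508 ± 208 for AIWG-P against 2603 ± 139 for AIWG-R (SD, n = 5 each). With the transcript length trend removed from each mouse, its log2 fold change went from -0.06 to 0.03.

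*Itgam* (Entrez 16409, chromosome 7), the alphaM chain of Mac-1 on neutrophils, monocytes and NK cells, was the lowest of the 9 on average and spread more widely. Its values were 1099, 1460, 1218, 1151 and 762 in P1, P3, P5, P7 and P8 and 1373, 1086, 1234, 1046 and 1163 in R1, R2, R4, R8 and R9. Both extremes, P3 and P8, were AIWG-P mice, and the highest was 1.92 times the lowest. The fold change was 0.948 (95% interval 0.763 to 1.18), and an exact permutation test of 5 mice against 5 gave *p* = 0.714. Without P8 the log2 fold change was 0.06 in place of -0.08.

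The alpha4 chain had the fold change furthest below 1 among the 9 genes. *Itga4* (Entrez 16401, chromosome 2) encodes alpha4, which lymphocytes and monocytes pair with beta1 or beta7. In P1, P3, P5, P7 and P8 its values were 2558, 3305, 3269, 2563 and 1686, and in R1, R2, R4, R8 and R9 they were 2748, 3031, 3485, 2738 and 3572. P8 was far below every other mouse, while P3 and P5 lay among the highest AIWG-R mice. The means were 2676 ± 662 and 3115 ± 397 (SD, n = 5 each), a log2 fold change of -0.25 (standard error 0.17; limma adjusted *p* = 0.515). Its 95% interval, 0.657 to 1.08, still held a fold of 1, and without P8 the log2 fold change was -0.09. *Itga4* has the longest transcript of the 9, 9767 bases, and with the length trend removed its log2 fold change was -0.06. The part of transcript length in the level of P8 was not tested beyond this.

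Its beta7 partner moved the other way in P8. *Itgb7* (Entrez 16421, chromosome 15), which with alpha4 directs lymphocytes to the gut, had 1507, 1404, 1444, 1464 and 1848 in P1, P3, P5, P7 and P8 and 1645, 1567, 1449, 1495 and 1540 in R1, R2, R4, R8 and R9. Apart from P8 the 9 mice lay between 1404 and 1645. The fold change was 0.992 (95% interval 0.872 to 1.13; limma adjusted *p* = 0.963), and the exact permutation *p* was 0.913. Among the AIWG-R mice the SD was 74.1 around a mean of 1539, a coefficient of variation (CV) of 4.81%.

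*Itgb1* (Entrez 16412, chromosome 8), the beta1 chain shared by VLA-4, the laminin receptor and most collagen and fibronectin receptors, had values of 1556, 1017, 1588, 1701 and 1756 in P1, P3, P5, P7 and P8. In R1, R2, R4, R8 and R9 they were 1725, 1328, 1403, 1730 and 1531. P3 was the lowest mouse by a wide margin, and the other 4 AIWG-P mice lay within or just above the AIWG-R range. The fold change was 0.975 (95% interval 0.789 to 1.20), and without P3 the log2 fold change turned from -0.04 to 0.10.

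*Itga6* (Entrez 16403, chromosome 2), the laminin-binding alpha6 chain that platelets carry in quantity, read 1461, 838, 1667, 1787 and 1414 in P1, P3, P5, P7 and P8 and 1687, 1237, 1513, 1939 and 1568 in R1, R2, R4, R8 and R9. As for *Itgb1*, P3 was lowest, and R8 was highest. The means of 1433 ± 366 and 1589 ± 256 (SD, n = 5 each) differed by a log2 fold change of -0.18 (standard error 0.18), less than the spread between mice. Without P3 it was 0.003, so the lower AIWG-P mean rests on that 1 mouse. Its CV over the 10 mice, 20.4%, was the highest of the 9 genes.

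*Pecam1* (Entrez 18613, chromosome 11) had values of 1220, 970, 1193, 1263 and 1232 in P1, P3, P5, P7 and P8 and 1309, 1125, 1185, 1411 and 1262 in R1, R2, R4, R8 and R9. P3 was again the lowest mouse and R8 the highest. The fold change was 0.933 (95% interval 0.812 to 1.07; limma adjusted *p* = 0.641). Endothelial cells also express this gene, but of 7 endothelial markers only *Vwf* and *Egfl7* were in the table, and *Vwf* is a platelet gene as well.

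*Selplg* (Entrez 20345, chromosome 5) came nearest to a difference between the cohorts. Its product PSGL-1 is the main ligand of P-selectin on leukocytes and is used for rolling on activated platelets and endothelium. It read 2103, 2093, 1747, 2176 and 2255 in P1, P3, P5, P7 and P8 and 2019, 1733, 1718, 1791 and 1635 in R1, R2, R4, R8 and R9. Of the AIWG-P mice 4 lay above every AIWG-R mouse, and P5 lay among the AIWG-R mice. The means of 2074 ± 195 and 1779 ± 145 (SD, n = 5 each) gave a fold change of 1.16 (95% interval 1.02 to 1.33) and a log2 fold change of 0.22, under the threshold of 0.32. The unadjusted limma *p* was 0.0286 and the exact permutation *p* 0.0238, and adjusted over all genes the limma *p* was 0.359. With 1 mouse left out the unadjusted limma *p* ran from 0.00558 (without P5) to 0.0676 (without R9), and without P3 and P8 the log2 fold change was 0.17.

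The level of *Selplg* moved with other measures of the same mice. It followed 9 neutrophil markers with r of 0.764 (permutation test, adjusted *p* over the 72 relations described with the marker lists of 0.139), 0.880 without P3 and R1, 0.932 in the 7 mice with label number 4, 0.782 under globin-free scaling and 0.801 with the length trend removed. That neutrophil list was higher in AIWG-P by 0.31 on the log2 scale (exact permutation *p* = 0.198), and its part in the value of *Selplg* was not tested. The log2 fold change of *Selplg* (standard error 0.09) fell to 0.12 with the mean of 9 pan-leukocyte genes as a covariate, to 0.15 with the red cell list, to 0.14 with the length trend removed and to 0.08 under globin-free scaling. Relative to the median of all genes under the last of these, *Selplg* was still higher. The red cell list itself was higher in AIWG-P by 0.62 on the log2 scale (exact permutation *p* = 0.0317). Its part in the value of *Selplg* was not tested beyond the covariate fit.

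**Figure D2:**
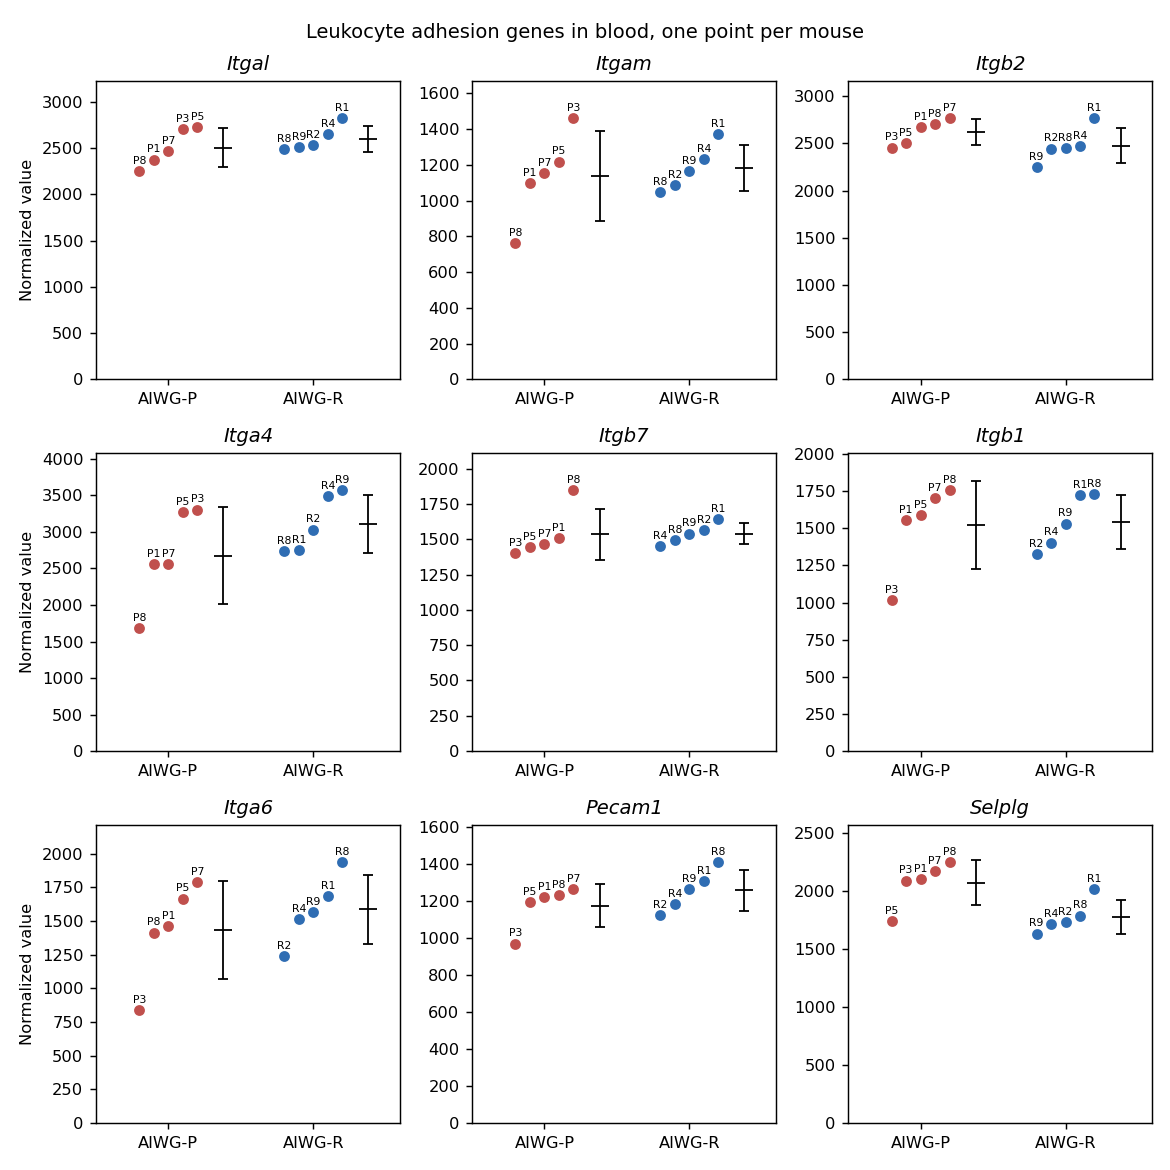
Normalized value of each adhesion gene in each mouse, with AIWG-P in red and AIWG-R in blue, the name of the mouse at each point, and the mean with its SD (n = 5) as a bar beside the points. The cohorts overlap in all 9 panels, P3 is lowest for *Itgb1*, *Itga6* and *Pecam1*, and P8 is lowest for *Itgal*, *Itgam* and *Itga4* and highest for *Itgb7*, *Itgb1* and *Selplg*.

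The spread between mice differed from gene to gene. The CV over the 10 mice was 6.69% for *Itgb2*, 6.82% for *Itgal*, 8.43% for *Itgb7* and 9.56% for *Pecam1*. It was 11.7% for *Selplg*, 15.1% for *Itgb1*, 16.4% for *Itgam*, 19.5% for *Itga4* and 20.4% for *Itga6*. The median was 11.7% for the 9 genes, 12.8% for 423 genes in the same range of levels and 15.3% for all genes. If a step were 1 read, counting alone would give the least counted of these genes, *Itgam*, a CV of 4.54%, well under the observed one.

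Divided by the length of the longest coding transcript in kilobases (GENCODE vM21), the levels took another order than the raw values. *Selplg* was highest at 1039 ± 121 per kilobase (SD, n = 10), followed by *Itgb2* at 858 ± 57.4, *Itgb7* at 573 ± 48.3 and *Itgal* at 489 ± 33.4. *Itgb1* (402 ± 60.7), *Pecam1* (354 ± 33.8), *Itga6* (351 ± 71.6), *Itga4* (296 ± 57.8) and *Itgam* (248 ± 40.6) followed. Each of the first 3 was above the next gene in all 10 mice. *Pecam1* was above *Itga6* in 5 of 10 mice and *Itga6* above *Itga4* in 6 of 10, so these neighbours could not be ordered. The beta2 chain thus read higher per kilobase than either of its alpha partners, and the isoforms in use were not measured.

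A heterodimer needs both its chains, and their ratio within a mouse is free of any scale factor of that mouse. The 5 alpha to beta ratios were compared as differences of log2 values. With all mice, every ratio was lower on average in AIWG-P, and none differed between the cohorts beyond the spread (exact permutation tests, adjusted over the 5 ratios, *p* = 0.456 to 0.516). *Itgal* relative to *Itgb2* stood at -0.07 ± 0.19 for AIWG-P against 0.07 ± 0.06 for AIWG-R (SD, n = 5 each). The difference, -0.14, had an exact permutation *p* of 0.151 before adjustment. For *Itgam* relative to *Itgb2* the difference was -0.16, for *Itga4* it was -0.21 relative to *Itgb1* and -0.24 relative to *Itgb7*, and for *Itga6* relative to *Itgb1* it was -0.14. P8 had the lowest of the 10 values for all 5 ratios, and without it the differences lay between -0.09 and 0.001 (exact permutation tests, adjusted *p* = 0.913 to 1.0). In each of these pairs the alpha chain has the longer transcript, and with the length trend removed the differences lay between -0.12 and -0.03.

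**Figure D3:**
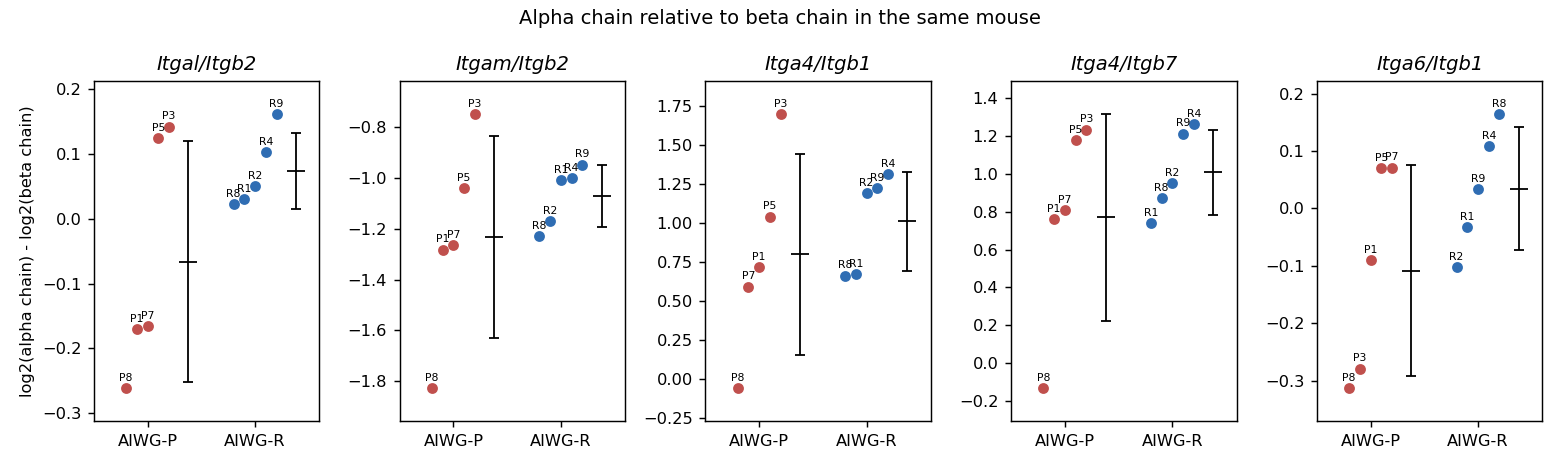
Difference of log2 values between the alpha and the beta chain of 5 heterodimers in each mouse, with the mean and SD of each cohort (n = 5) as a bar beside the points. P8 is the lowest mouse in every panel, and the AIWG-R mice lie within the AIWG-P range or above it.

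On the deposited scale, 1 of the 5 pairs of chains varied together across the 10 mice. *Itga6* and *Itgb1*, which pair as the laminin receptor, had a Pearson r of 0.902 (permutation *p* = 0.00285, adjusted over 5 pairs 0.0142) and a Spearman rho of 0.612 (permutation *p* = 0.0678, adjusted 0.169). Without P3 and R8, the mice farthest from the median of *Itga6*, r was 0.621, and without P3 alone 0.670, which no longer passed the test, so the relation rests in part on P3, and it did not pass without R2 either. Among the 7 mice with label number 4 r was 0.977, and the 3 mice with label number 3 are too few for a value.

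*Itga4* and *Itgb7* were opposed, with r of -0.773 (permutation *p* = 0.0227, adjusted 0.0567) and rho of -0.442 (permutation *p* = 0.203). Without P8 r was -0.286, so this relation rests on that mouse. Under globin-free scaling it was 0.249, a change of sign. *Itga4* and *Itgb1* had r of -0.53 and rho of -0.68 (permutation *p* = 0.0348, adjusted 0.169), and r of 0.01 under globin-free scaling.

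The alpha chains of LFA-1 and Mac-1 had an r near 0 with their shared beta chain on the deposited scale. The r was -0.16 for *Itgal* with *Itgb2* (permutation *p* = 0.661) and -0.18 for *Itgam* with *Itgb2* (*p* = 0.634 by permutation). Both signs depended on the scale: under globin-free scaling the values were 0.669 and 0.624, and with the length trend removed 0.692 and 0.05. A common scale factor of each mouse moves all genes together, and the size of that factor was not measured apart from the genes. With the length trend removed, 4 of the 5 pairs passed the test: *Itga6* with *Itgb1* (0.919) and *Itgal* with *Itgb2* were positive, and *Itga4* was negative with *Itgb1* (-0.69) and with *Itgb7* (-0.68).

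Over all 36 pairs of the 9 genes, a family looked at after the values were known, *Itga6* and *Pecam1* had the highest r. It was 0.940 (permutation *p* = 0.00036, adjusted over 36 pairs 0.00660), with a rho of 0.842, and 0.734 without P3 and R8. *Itgb1* with *Pecam1* had 0.915 and *Itgal* with *Itgam* 0.876. Without the 2 mice farthest from the median of the first gene, these were 0.618 and 0.742. The 3 relations among *Itga6*, *Itgb1* and *Pecam1* kept an r of 0.919 to 0.947 with the length trend removed, while *Itgal* with *Itgam* had 0.296. *Itgb2* with *Selplg* had an r of 0.809 (permutation test, adjusted *p* = 0.0413), and 0.796 without P7 and R1. *Itga4* ran against *Selplg* with r of -0.743, which was -0.13 under globin-free scaling. By rho, none of the 36 pairs passed the adjusted permutation test. The smallest adjusted *p* by rho in that test was 0.0661, that of *Itga6* with *Pecam1* among them.

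Each gene was also set beside the mean log2 level of 8 marker lists, 72 relations in all. *Itgb1* followed the list of 8 platelet markers, with r of 0.934 and rho of 0.903 (permutation test, adjusted *p* over 72 relations of 0.0238 for r and 0.0547 for rho). Without P3 and P8 this r was 0.795, in the 7 mice with label number 4 it was 0.931, and under globin-free scaling 0.856. *Pecam1* and *Itga6* had r of 0.782 and 0.764 with the same list, which did not pass (permutation test, adjusted *p* = 0.139 and 0.177). With the length trend removed these were 0.888 and 0.924. Without P3 and P8 they were 0.586 and 0.635, and under globin-free scaling 0.547 and 0.726. The rho was 0.661 for *Pecam1* and 0.491 for *Itga6*. The platelet list held none of the 9 genes. *Itgb1*, *Itga6* and *Pecam1* were also positive with the T cell list (r of 0.404 to 0.672) and the NK cell list (0.581 to 0.670). None of these relations passed the adjusted permutation test. By rho, none of the 72 relations passed it, and the 0.0547 of *Itgb1* with the platelet list was the smallest adjusted *p*.

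*Selplg* followed the pan-leukocyte list with r of 0.872 (permutation test, adjusted *p* = 0.04), 0.815 without P8 and R9 and 0.503 under globin-free scaling. Its rho with that list was 0.806, which did not pass (permutation test, adjusted *p* = 0.174). *Itga4* ran against that list (r = -0.855), which was -0.577 without P8 and R9 and -0.09 with the length trend removed, and under globin-free scaling the sign changed to 0.505. *Itgal* and *Itgam* ran against the T cell list on the deposited scale, with r of -0.827 and -0.874. These were -0.663 and -0.443 without P3 and P8, -0.315 and -0.742 with the length trend removed and -0.01 and -0.23 under globin-free scaling.

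**Figure D4:**
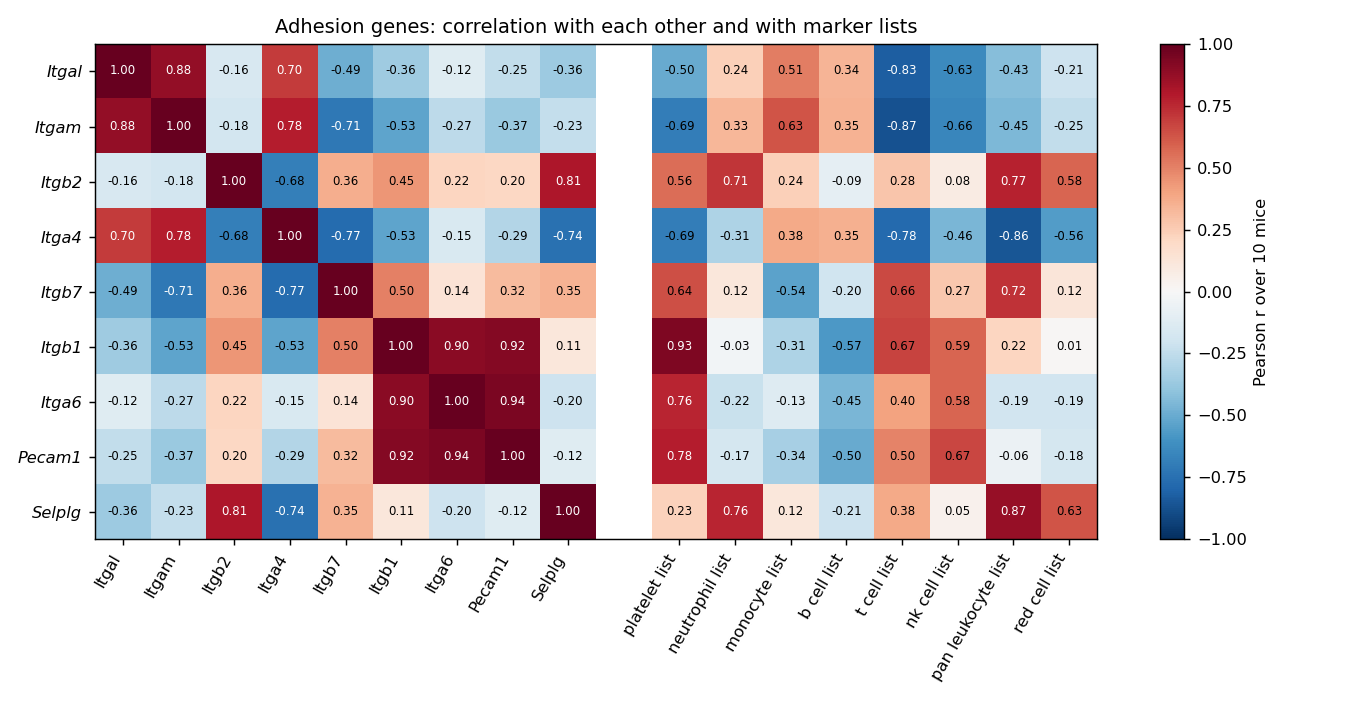
Pearson r over 10 mice between the log2 values of the 9 adhesion genes (left block) and between these and the mean log2 level of 8 marker lists (right block). *Itga6*, *Itgb1* and *Pecam1* form a block of 0.90 or more. They are positive with the platelet, T cell and NK cell lists, and *Itga4* is negative with the pan-leukocyte list on this scale.

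The genes whose values were most like each member, ranked by r over the 10 mice among 10428 others, are given as a description. Nearest to *Itga6* were *Plek*, the platelet kinase substrate pleckstrin (0.979), *Rab27b* (0.969) and *Tubb1*, a platelet tubulin (0.966), and *Plek* (0.969), *Sytl4* (0.969) and *Nckap1* (0.968) were nearest to *Pecam1*. For *Itgb1* they were *Mmd* (0.994), *Pttg1ip* and *Mfap3l*. *Itga4* was most like *Cnot1* (0.992), a scaffold of the deadenylase complex, *Phip* and *Bach2*, and *Itgam* like *Zfhx3* (0.964), *Hnrnph2* and *Abca9*. *Hnrnph2* (0.929), *Rassf2* and *Tnrc18* were nearest to *Itgal*, and *Cap1* (0.932), which acts on actin, *Dnase1l1* and *Tmem138* to *Itgb2*. *Itgb7* was most like *Stx4a* (0.971), *Stxbp2* and *Nelfcd*, and *Selplg* like *Ralb* (0.965), *Hras* and *Msrb1*.

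**Figure D5:**
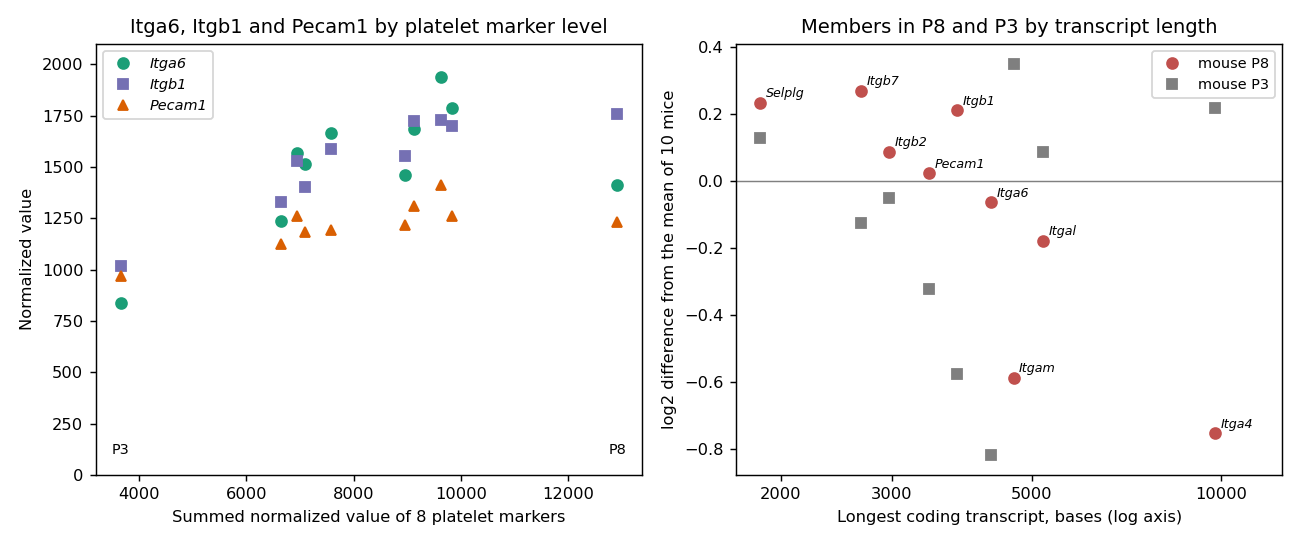
Left, normalized values of *Itga6*, *Itgb1* and *Pecam1* against the summed normalized value of 8 platelet markers, with 1 point per gene and mouse: P3 at 3656 is lowest for all 3 genes and P8 is at 12919. Right, log2 difference of each adhesion gene from its mean over 10 mice, in P8 and P3, against the length of its longest coding transcript (log axis): in P8 the values run from 0.27 for *Itgb7* (2683 bases) to -0.75 for *Itga4* (9767 bases), with no such order in P3.

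P8 and P3 departed from the other mice in different genes. In P8, *Itga4* was 0.75 below its mean over the 10 mice on the log2 scale and *Itgam* was 0.59 below, while *Itgb7* was 0.27 and *Selplg* 0.24 above. Over the 9 genes these differences had an r of -0.854 with log2 transcript length, given as a description since the genes share 1 library. Such an order was not particular to P8: the r was -0.897 in P1, -0.536 in P7, 0.909 in P5, 0.931 in R4 and 0.866 in R9, with smaller slopes over all genes in these mice. In P3 the low genes were *Itga6* (0.82 below), *Itgb1* (0.58 below) and *Pecam1* (0.32 below), with an r of 0.155 with length. Whether platelet number, transcript length or both set these levels was not tested.

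Of 100 other adhesion genes listed in 5 groups, 76 were measured, and 1 rose past both thresholds and 0 fell, beside 7.29% of all genes. The gene that rose was *Itga5*, the alpha5 chain of the fibronectin receptor with beta1, at 89.2 ± 22.9 for AIWG-P against 65.5 ± 6.34 for AIWG-R (SD, n = 5 each). Its fold change was 1.33 (log2 0.41, standard error 0.15; limma adjusted *p* = 0.343), and the values of the cohorts overlapped. Its log2 fold change was 0.28 without P8, 0.21 with the pan-leukocyte list as a covariate, 0.29 with the red cell list and 0.27 under globin-free scaling, and in each of these it no longer passed both thresholds. Globin-free scaling moved the median of all genes to -0.15, and relative to that median *Itga5* was still higher. In all, 6 of the 76 had an unadjusted limma *p* under 0.05, beside 12.8% of all genes. The log2 fold change was positive in 43 of the 76, beside 5047 of all 10429 genes, and the median of the 76 was 0.02.

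Among the selectins and their ligands, 14 were measured and 0 passed. *Selp*, the P-selectin gene of platelets and endothelium, had values of 42.6 ± 13.7 and 35.7 ± 5.90 (SD, n = 5 each). *St3gal4*, a sialyltransferase that helps to build the sugars selectins bind, had a fold change of 1.14, and the hyaluronan receptor gene *Cd44* one of 1.10 (limma adjusted *p* = 0.455 and 0.515). *St3gal6* had 1.05.

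Of 8 other integrin chains measured, 1 passed, *Itga5*. *Itga2*, the collagen receptor chain of platelets, stood at a log2 fold change of -0.36 (SE 0.21), *Itgae*, the E-cadherin receptor chain, had -0.22 and *Itgav*, of the vitronectin receptors, -0.10. The 14 counter-receptors measured had 0 past both thresholds. *Cd48*, a lymphocyte surface protein that binds CD2 in mice, had a fold change of 1.21 (limma adjusted *p* = 0.343), *Cd2* one of 1.11, *Jaml*, a junction adhesion molecule of leukocytes listed under an older symbol, 1.20, and *Pvr*, the nectin-like poliovirus receptor, 1.20. Of the 14, 12 had a positive log2 fold change, beside 5047 of all 10429 genes.

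The list of genes that promote or inhibit the activation of integrins from inside the cell held 15 genes. Of these, 0 passed both thresholds and 2 had an unadjusted limma *p* under 0.05, a share near the 12.8% of all genes. *Rap1a*, the small GTPase that recruits talin to integrins, had 885 ± 61.7 for AIWG-P against 753 ± 70.3 for AIWG-R (SD, n = 5 each), a fold change of 1.18 (limma adjusted *p* = 0.343). *Itgb1bp1*, which encodes ICAP-1, an inhibitor that binds the beta1 tail, had a fold change of 1.24, and *Sharpin*, another integrin inhibitor, one of 0.894. *Skap1*, an adaptor of T cells, had 1.15.

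In the list of 25 genes that act downstream of bound integrins, 0 passed. The adaptor gene *Crk* had a fold change of 0.855, the adaptor *Lcp2* 1.09 and *Vcl*, which encodes vinculin, 0.868. Among these 3 the limma adjusted *p* lay between 0.385 and 0.525.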

How the data were processed

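Whole-blood RNA of 10 mice was analyzed, 5 per cohort. Mapping was done by the authors with Bowtie2, quantification with RSEM and comparison with limma, and mm9 is the assembly in the submitters' processing notes, with no version for any tool. For each gene the deposited table gives a signal value per mouse, with a normalization that no source used here describes, and columns of the authors' own comparison: cohort means, a signed fold change score, its log2, and p-values and q-values. None of these was used. All 10 columns of single mice were used. Values fell on whole multiples of a step per mouse (tolerance 0.02), but they were treated as normalized values and no count model was run. The steps were not accepted as reads in a check of the table, so the depths in the text are what the steps would give. Intervals are those of limma for the fold change between cohorts, computed from the variance between mice, and are not ranges of single mice.

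With a pseudocount of 1, log2 values were fitted in limma 3.58.1 (R 4.3.3) with a trend of the variance on the mean. Genes had to exceed 1 in 5 or more mice, which left 10429 and kept all 9 adhesion genes. Adjusted *p* values are those of Benjamini and Hochberg over all genes. Single values were compared by exact two-sided permutation tests, which can give no *p* under 0.0079 here, and correlations by two-sided permutation tests of 100000 resamples (Python 3.11.15, scipy 1.17.1). The fits were tested on simulated data. The p-values of the cohort comparisons set a difference between cohorts against the spread between single mice.

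The names of the 9 genes and all lists were drawn up with earlier results of these data known, though no value served as a criterion. Named genes were the 9, adhesion genes past both thresholds, the 4 genes with the smallest *p* of each adhesion list, the selectins, and the 3 genes with the highest r with each member. A few genes that this rule names are not reported here. List genes were matched by Entrez ID, and transcript lengths, known for 96.2% of the genes, came from GENCODE vM21. The mouse numbers 1 and 8 occur in both cohorts, and the labels tie same-numbered mice by nothing else. Alternatives covered scaling, filter, pseudocount, variance model, thresholds, covariates, a replicate block and leaving out each mouse. Leaving out P3 and P8 or P8 and R9 together, the mice with label number 4 alone and removal of the length trend were added after seeing the data.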

Additional observations from a re-analysis of the deposited data

Results flagged for a closer look

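Among 28 sets of 5 mice (the 9 genes and the 5 alpha to beta ratios in each cohort), 3 values lay far from the rest of their cohort by Dixon's criterion, where chance flags about 1 set in 20. The sets share mice, and the ratios share genes with the other sets, so the 3 values are not independent events to set against that share. *Itgb1* in P3, at 1017, lay below the other AIWG-P mice by 0.728 of the range of that cohort. *Pecam1* in P3, at 970, lay below them by 0.762 of it. *Itgb7* in P8, at 1848, lay above them by 0.768. The summed platelet markers were also lowest in P3 (3656) and highest in P8 (12919), and their part in these values was not tested.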

How the results depend on the processing

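Under globin-free scaling 1374 of all genes passed both thresholds, 162 up and 1212 down, against 423 up and 337 down on the deposited scale. The median log2 fold change of all genes was -0.15 under that scaling. With the red cell or the pan-leukocyte list as a covariate 371 or 392 passed, and with P8 and R9 left out 366. Without 1 mouse at a time 507 to 1200 passed (1200 without P3, 1165 without P5). The 9 adhesion genes gave 0 in all of these. Of the other adhesion genes 2 passed under quantile normalization, 0 with the pan-leukocyte list as a covariate, 2 in the mice with label number 4 alone, and 0 (without P8) to 4 (without P3) with 1 mouse left out. Among the 5 chain pairs, 0 (without P3 or R2) to 2 (without P7 or R9) passed with 1 mouse left out, and 4 with the length trend removed.

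The replicate block on the mouse number gave 1776 genes, 10 other adhesion genes and 3 of the 9: *Itga4* (log2 fold change -0.40), *Itgam* (-0.39) and *Itga6* (-0.33). In it *Itgb7* turned to 0.0899. The block rests on 2 shared numbers, whose mice deviated with r of 0.116 (P1 and R1) and 0.327 (P8 and R8), and the labels give them nothing in common but the number.

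The sign of 6 small log2 fold changes, none of them past a threshold, also turned elsewhere. *Itgal* was 0.0301 in the mice with label number 4 alone and 0.0305 with the length trend removed. *Itgam* was 0.0034 with the red cell and 0.029 with the pan-leukocyte list as a covariate, 0.146 with label number 4 alone and 0.0562 without P8 and R9. *Itgb2* was -0.0063 under quantile normalization and -0.0603 under globin-free scaling. Without P3 and P8, *Itgb1* was 0.0722 and *Itga6* 0.0547. With 1 mouse left out, *Itgam* ran from -0.174 to 0.0598, *Itgb1* from -0.0942 to 0.103, *Itgb7* from -0.0804 to 0.0185 and *Itga6* from -0.27 to 0.0028. *Itga4*, *Pecam1* and *Selplg* kept their direction in all alternatives. The cause of these turns was not tested. With 5 mice per cohort, the intervals of the 8 genes other than *Selplg* hold a fold of 1 and also differences in either direction.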
